A study of Mus musculus with 4 samples.

Results

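The transcripts described here are those of 10 heat shock chaperones of mouse liver: Hspa1a, Hspa1b, Hspa8, Dnajb1, Dnaja1, Hsph1, Hsp90aa1, Hsp90ab1, Hspd1 and Hspb1. They were taken by gene symbol from the count and TPM tables, which hold 33639 genes. All 10 reached a mean of 1 CPM (counts scaled to a common library size) over the 4 libraries, as did 11743 genes in all. The series was made to examine how deleting Cyp27a1 and Cyp3a from the whole body affects the making of bile acids in liver. One untreated male on chow was sampled for each of 4 genotypes: wild type (WT), Cyp27a1 global KO, Cyp3a4 global KO, and the global double KO of both genes (DKO). The Cyp3a4 label is a human symbol, the title of that sample reads Cyp3a-KO, and mice have several Cyp3a genes, so it is called the Cyp3a KO here. Age and strain were not given in the labels. Each genotype is represented by 1 liver, so no value below has a replicate check, no p-value is given, and every comparison is between libraries.

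Library totals lay between 49745860 and 50378101 counts. The deleted genes followed their labels: Cyp27a1 had 746 CPM in WT, 57.6 in Cyp27a1 KO liver, 727 in Cyp3a KO liver and 65.3 in DKO liver, and Cyp3a11, a major hepatic Cyp3a gene, had 8742, 23706, 0.160 and 4.76 CPM in the same order. All 8 hepatocyte markers were measured, with albumin (Alb) between 37953 and 72499 CPM. Ranges in parentheses are exact 95% bounds that cover counting error only, and reads counted without molecular identifiers may be copies of 1 molecule.

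Heat shock chaperones bind proteins that are unfolded or newly made, and keep them from aggregating until they fold. Hsp70 proteins work in a cycle driven by ATP, in which J-domain partners deliver the client and start ATP hydrolysis and exchange factors release it. Hsp90 completes the folding of kinases and steroid receptors, small heat shock proteins hold unfolded clients, and the mitochondrial chaperonin encloses them in a chamber. Many of these genes are induced by HSF1, which binds heat shock elements, inverted repeats of the unit GAA. Liver makes large amounts of secreted and mitochondrial protein and expresses the constitutive chaperones strongly.

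Promoter windows were searched for the heat shock element because the members share this textbook regulator. Windows came from RefSeq (build GRCm38.p6) and cover the 250 bases before a transcript start. 7 of the 10 members had a window. Searched were 2 alternating units, GAANNTTC or TTCNNGAA, each of which is its own reverse complement, and 3 alternating units, GAANNTTCNNGAA or TTCNNGAANNTTC, which are reverse complements of each other and contain the shorter motifs. Both strands were covered. At least 1 pair of units lay in a window of 6 of the 7 members, which have 12 windows between them, and in a window of 14.5% of all 27025 genes. 3 units lay in a window of 1 member, Hspd1, and of 0.514% of all genes. By window, the shares over all 32851 windows were 12.8% and 0.466%, and no such share was computed for the members. A gene with several windows has more occasions for a match, and the near-identical windows of Hspa1a and Hspa1b count as separate matches. These are matches of letters, not measured binding. The Dnajb1 window held neither motif in these letters.

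The windows of Hspb1 (chr5:135887669-135887918, plus strand) and of the near-identical pair Hspa1b (chr17:34959239-34959488, minus strand) and Hspa1a (chr17:34972157-34972406, minus strand) are shown because these are the members with a fold past the 2-fold rule used below. Capitals mark the pairs of alternating units, and each sequence reads 5′ to 3′ on the gene's strand.

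Hspb1: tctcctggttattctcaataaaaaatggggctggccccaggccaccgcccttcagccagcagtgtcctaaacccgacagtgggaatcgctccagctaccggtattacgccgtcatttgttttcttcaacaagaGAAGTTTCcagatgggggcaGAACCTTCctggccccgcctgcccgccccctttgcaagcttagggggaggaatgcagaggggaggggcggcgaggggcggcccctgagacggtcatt

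Hspa1b: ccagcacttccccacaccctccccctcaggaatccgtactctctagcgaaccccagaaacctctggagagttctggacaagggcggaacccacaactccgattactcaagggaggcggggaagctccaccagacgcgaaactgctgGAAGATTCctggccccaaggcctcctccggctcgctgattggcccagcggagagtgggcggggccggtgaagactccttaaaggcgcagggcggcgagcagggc

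Hspa1a: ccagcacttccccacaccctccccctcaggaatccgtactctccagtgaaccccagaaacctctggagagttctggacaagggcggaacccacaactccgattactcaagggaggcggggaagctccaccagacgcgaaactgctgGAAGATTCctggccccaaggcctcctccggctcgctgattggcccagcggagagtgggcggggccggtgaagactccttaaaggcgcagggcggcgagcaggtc

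The Hspb1 window holds 2 separate pairs of units, the nearer one starting 97 bases before the transcript start. Hspa1a and Hspa1b each hold 1 pair, starting 104 bases before the start, and their windows differ at 3 of 250 positions. Stretches of 30 bases around the matches of 3 other members follow, with the matched units in capitals. They are chr1:55088053-55088082 (minus strand) for Hspd1, chr5:149636351-149636380 (minus strand) for Hsph1 and chr4:40722333-40722362 (plus strand) for Dnaja1.

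Hspd1: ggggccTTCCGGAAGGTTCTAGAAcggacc

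Hsph1: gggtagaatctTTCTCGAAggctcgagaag

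Dnaja1: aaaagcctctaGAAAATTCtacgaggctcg

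The Hspd1 match lies between the transcript starts taken for the windows of 2 divergent genes. The same bases, read on the other strand, fall in the window of Hspe1, which encodes the lid of the same chaperonin. Hspd1 has more than 1 annotated start, and the match lies before one start and inside the first exon of the transcript from the other. The Hsph1 and Dnaja1 matches also lie inside their annotated genes, past the outermost starts at 149636376 (minus strand) and 40722150 (plus strand). They lie before a later transcript start, not before the outermost one.

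Per unit of transcript length, the constitutive chaperones were the most abundant members in every library. On the TPM scale (transcript abundance corrected for length and scaled to a fixed total), Hspa8 was highest, at 814 in WT, 1193 in Cyp27a1 KO liver, 793 in Cyp3a KO liver and 1274 in DKO liver. Hsp90ab1, Hspd1, Dnaja1 and Hsp90aa1 followed in this order in all 4 libraries, and Hspa1a was last in all 4, at 0.830, 1.04, 1.72 and 2.58 TPM. The middle of the order varied: Hspa1b passed Dnajb1 in the Cyp3a KO (12.7 against 11.2 TPM), and Hsph1 passed Hspb1 in the DKO (24.0 against 15.9 TPM). With 1 library each, whether such neighbours differ beyond the spread between mice was not tested. Summed over the 10 members the level was 1589 TPM in WT, 2614 in Cyp27a1 KO liver, 1893 in Cyp3a KO liver and 2448 in DKO liver. The sums of CPM were 2556, 3734, 2994 and 3010.4 in the same order, so the DKO was level with the Cyp3a KO by counts and above it on TPM. On the TPM scale the median gene of the DKO also stood 0.23 above the Cyp3a KO (log2). Hspa8 supplied between 41.9% and 52.1% of the TPM sum.

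**Figure D1:**
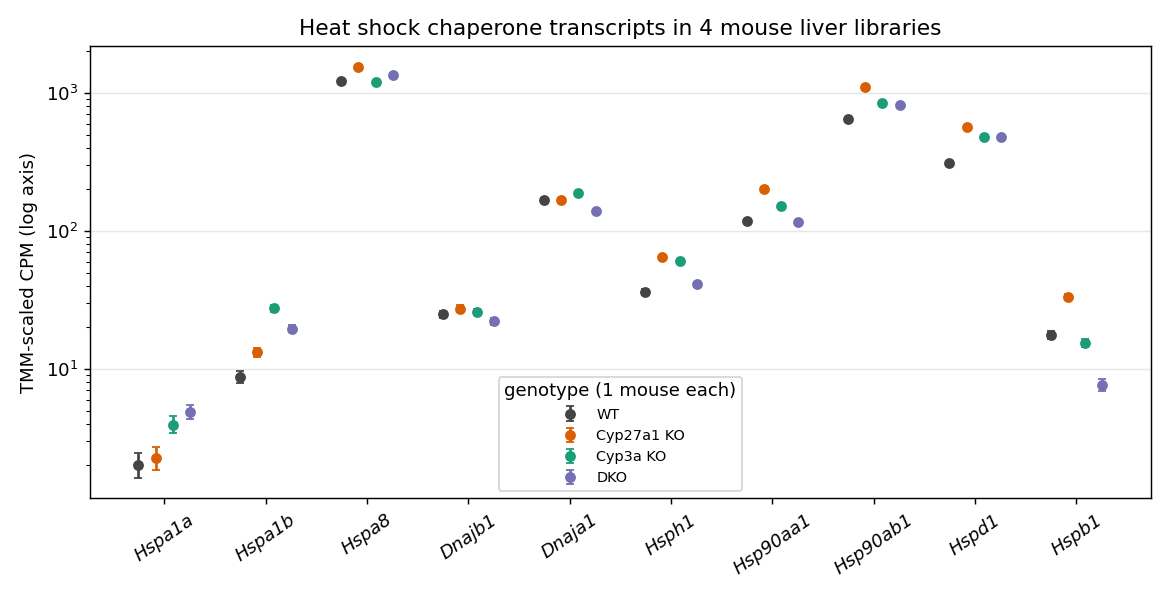
CPM of the 10 chaperones (log axis) in the 4 libraries, 1 point per genotype, with bars for the exact 95% Poisson interval of the count, which is narrower than the point for most members. Hspb1 runs from 7.70 CPM in the DKO to 33.4 in the Cyp27a1 KO, and Hspa1b from 8.79 in WT to 27.5 in the Cyp3a KO.

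The stress-inducible Hsp70 genes, Hspa1a and Hspa1b, were higher in the livers that lack Cyp3a. Hspa1b (chromosome 17, 34956436 to 34959238, minus strand, GRCm38) had 8.79 CPM in WT, 13.2 in Cyp27a1 KO liver, 27.5 in Cyp3a KO liver and 19.5 in DKO liver. Both libraries without Cyp3a were above both libraries that have it. Against WT it was 1.503-fold higher (1.33 to 1.70) in the Cyp27a1 KO, 3.13-fold higher (2.80 to 3.50) in the Cyp3a KO and 2.22-fold higher (1.98 to 2.50) in the DKO.

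Hspa1a (chromosome 17, 34969190 to 34972156, minus strand) was the least abundant member and showed the same split. It had 2.02 CPM in WT and 2.25 in the Cyp27a1 KO, against 3.95 in Cyp3a KO liver and 4.89 in DKO liver, from 94, 112, 198 and 265 counts. Its fold over WT was 1.12 (0.840 to 1.48) in the Cyp27a1 KO, an interval that includes 1, then 1.96 (1.53 to 2.53) without Cyp3a and 2.43 (1.91 to 3.10) without both genes. The longest open reading frames of this pair share 99.6% of aligned bases, so how the authors' counting divided reads between them is uncertain. Summed as 1 gene, the pair was 1.43-fold (1.28 to 1.60), 2.91-fold (2.63 to 3.22) and 2.26-fold (2.04 to 2.51) the WT level in the Cyp27a1, Cyp3a and double knockouts.

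Hspa8, the constitutive Hsp70 (chromosome 9, 40800984 to 40810087, plus strand), was nearly level across genotypes by counts. It had 1223 CPM in WT, 1544 in Cyp27a1 KO liver, 1193 in Cyp3a KO liver and 1359.8 in DKO liver. The highest library was 1.26-fold (1.25 to 1.28) above WT and the lowest 0.975-fold (0.964 to 0.986) of it. On TPM the DKO stood higher, with a log2 fold over WT of 0.65 against 0.15 by counts, or 0.32 relative to the median gene.

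The J-domain partners differed little from WT. Dnajb1, which works with the inducible Hsp70 (chromosome 8, 83608193 to 83612653, plus strand), had 25.01, 27.4, 25.9 and 22.1 CPM in WT, Cyp27a1 KO, Cyp3a KO and DKO livers. Dnaja1 (chromosome 4, 40722150 to 40737149, plus strand) had 168 CPM in WT, 169 in Cyp27a1 KO liver, 188 in Cyp3a KO liver and 139 in DKO liver. In both genes the DKO library was the lowest by CPM. Neither gene differed from WT by 1.5-fold in any knockout. Between the knockouts, Dnaja1 was 1.36-fold lower (1.32 to 1.40) in the DKO than in the Cyp3a KO. That log2 fold was -0.44 by counts, -0.51 on TPM and -0.75 relative to the TPM median gene.

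Hsph1 encodes Hsp110, an exchange factor for Hsp70 (chromosome 5, 149614287 to 149636376, minus strand). It had 36.3 CPM in WT, 64.3 in Cyp27a1 KO liver, 60.7 in Cyp3a KO liver and 41.2 in DKO liver. By counts the single knockouts stood together above the other libraries, with the DKO close to WT. Its folds over WT were 1.77 (1.67 to 1.88), 1.67 (1.57 to 1.77) and 1.14 (1.07 to 1.21). On TPM the DKO stood nearer to the single knockouts, at 24.0 against 28.0 and 25.4, with 16.1 in WT. Its TPM log2 fold over WT was 0.56, or 0.24 relative to the median gene.

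Of the cytosolic Hsp90 genes, Hsp90aa1, the inducible form (chromosome 12, 110690605 to 110702728, minus strand), had 118 CPM in WT, 203 in Cyp27a1 KO liver, 151 in Cyp3a KO liver and 117 in DKO liver. Hsp90ab1, the constitutive form (chromosome 17, 45567775 to 45573271, minus strand), had 647.5, 1108, 852 and 817 CPM in the same order. The Cyp27a1 KO was the highest library for both, and the DKO was level with WT for Hsp90aa1 but above it for Hsp90ab1. In the Cyp27a1 KO the folds over WT were alike, 1.72 (1.66 to 1.78) for Hsp90aa1 and 1.71 (1.69 to 1.74) for Hsp90ab1. In the DKO they were 0.990 (0.954 to 1.03) and 1.26 (1.24 to 1.28), and the Hsp90aa1 log2 fold of -0.01 became 0.50 on TPM, or 0.18 relative to the median gene.

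Hspd1 encodes Hsp60, the mitochondrial chaperonin (chromosome 1, 55077835 to 55088243, minus strand). It had 308.5 CPM in WT, 569 in Cyp27a1 KO liver, 476 in Cyp3a KO liver and 482 in DKO liver. All 3 knockouts were above WT, with folds of 1.84 (1.81 to 1.88), 1.54 (1.51 to 1.58) and 1.56 (1.53 to 1.60). Processed copies of Hspd1 in the tables held at most 33 counts in a library.

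Hspb1, the small heat shock protein Hsp25 (chromosome 5, 135887919 to 135889563, plus strand), spanned the widest range of the 10 by CPM. It had 17.6 CPM in WT, 33.4 in Cyp27a1 KO liver, 15.5 in Cyp3a KO liver and 7.70 in DKO liver, from 820, 1664, 776 and 417 counts. The Cyp27a1 KO was the highest library and the DKO the lowest. Against WT it was 1.90-fold higher (1.75 to 2.07) in the Cyp27a1 KO, 0.881-fold (0.798 to 0.973) of WT in the Cyp3a KO and 2.28-fold lower (2.03 to 2.58) in the DKO. Between the knockouts it was 4.34-fold lower (3.90 to 4.84) in the DKO than in the Cyp27a1 KO.

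**Figure D2:**
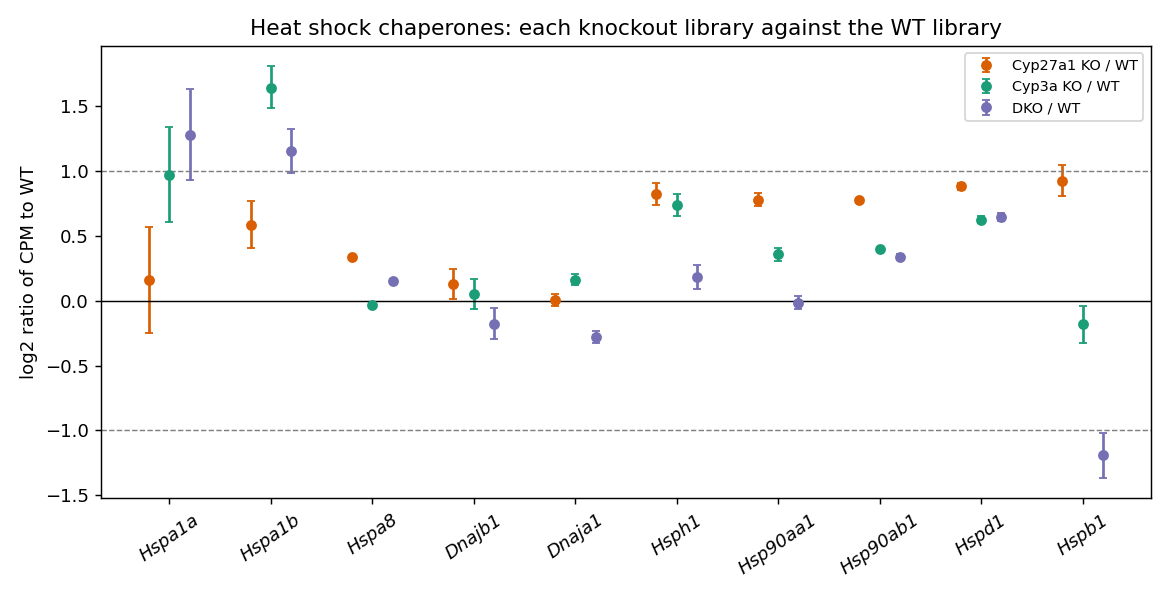
Log2 ratio of CPM in each knockout to WT for the 10 chaperones, with exact 95% bounds of the count ratio as bars and dashed lines at 2-fold. Hspa1b in the Cyp3a KO (3.13-fold) and Hspb1 in the DKO (2.28-fold lower) lie farthest from 0 on either side.

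A gene was called at a given fold where the log2 fold of CPM plus 0.5 reached it, the mean CPM was at least 1 and the interval of the count ratio excluded 1. In the Cyp27a1 KO, 0 of the 10 members were called 2-fold higher than WT, where 2.44% of all measured genes were, and 0 were called lower (1.36% of all). At 1.5-fold, 5 were higher (6.89% of all), namely Hspb1, Hspd1, Hsph1, Hsp90aa1 and Hsp90ab1, and 0 lower (4.96% of all). All 10 log2 folds were above 0, from 0.00 for Dnaja1 to 0.91 for Hspb1, as were 50.1% of all measured genes. The members' median was 0.67 against 0.00 for all measured genes. Deposited TPM put Hspb1, Hspd1 and Hsp90aa1 past 2-fold, at log2 folds of 1.09, 1.05 and 1.03. As TPM moved the median gene to 0.17, these were 0.92, 0.88 and 0.86 relative to it.

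In the Cyp3a KO, 1 member, Hspa1b, was 2-fold higher than WT (2.56% of all measured genes) and 0 were lower (1.86%). At 1.5-fold, 4 were higher (7.38% of all): Hspa1b, Hspa1a, Hsph1 and Hspd1. None of the 10 was 1.5-fold lower (5.66% of all). Log2 folds ran from -0.18 for Hspb1 to 1.59 for Hspa1b, with a median of 0.38 against 0.01 for all measured genes.

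In the DKO, Hspa1a and Hspa1b were 2-fold higher than WT, 2 of 10 members against 6.00% of all measured genes, and Hspb1 was lower, 1 of 10 against 4.02%. At 1.5-fold Hspd1 joined the higher ones, making 3 (13.6% of all), and 1 was lower (10.5% of all). The median log2 fold was 0.17 against -0.01 for all measured genes. The Hspb1 call depended on scaling: its log2 fold was -1.14 here, -0.95 with library totals and -0.82 on TPM, where the median gene stood at 0.17 and 0.32. Relative to the median gene the TPM value was -1.14. The Hspa1a call was lost where a mean of 5 CPM was required and, at a log2 fold of 0.89, relative to the TPM median gene. A pseudocount of 2 ended the calls of both Hspa1a and Hspa1b. The 3 comparisons with WT share that 1 library, so a deviation of the WT mouse would enter all of them.

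The DKO can also be set against each single knockout, which gives each gene loss a second time, on a background that already lacks the other gene. Against the Cyp3a KO, 0 members were called 2-fold higher (4.02% of all measured genes) or lower (2.70%). At 1.5-fold 0 were higher (9.59%) and 1, Hspb1, was lower (7.43%), at 2.01-fold (1.79 to 2.27) and a log2 fold of -0.96. 7 of the 10 members were lower in the DKO and 3 were higher, as were 47.9% of all measured genes. The members had a median log2 fold of -0.30 against -0.02 for all measured genes. That median was 0.025 on TPM and -0.21 relative to the TPM median gene, so its sign depends on the scale. Against the Cyp27a1 KO, 0 members were called 2-fold higher (2.84%) and Hspb1 alone of the 10 was 2-fold lower (2.59%). At 1.5-fold, Hspa1a was higher (7.89%) at 2.18-fold (1.74 to 2.74) by the CPM ratio and 0.97 by the log2 fold with the pseudocount, and it passed 2-fold with library totals or a pseudocount of 0.1. Also at 1.5-fold, 3 were lower (6.61%): Hspb1, Hsp90aa1 at 1.74-fold (1.68 to 1.79) and Hsph1 at 1.56-fold (1.48 to 1.65).

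Loss of Cyp27a1 went with higher Hspb1 where Cyp3a was intact and with lower Hspb1 where it was not. The log2 folds were 0.91 (Cyp27a1 KO against WT) and -0.96 (DKO against Cyp3a KO), a pair of comparisons with no library in common. Such opposite folds, both at least 1.5-fold, were found for 1 of 10 members and 0.937% of all measured genes. Hsph1 (0.81 and -0.55), Hsp90aa1 (0.78 and -0.37), Hspa1b (0.56 and -0.48), Hsp90ab1 (0.77 and -0.06), Dnajb1 (0.13 and -0.23) and Dnaja1 (0.0048 and -0.44) also had opposite signs, with at least 1 of the pair under 1.5-fold. Opposite signs of any size were not set beside a share over all measured genes. On TPM the second values of Hsp90aa1, Hsp90ab1 and Dnajb1 were above 0 (0.0067, 0.23 and 0.042), and that of Hsph1 was -0.08. Relative to the TPM median gene these 4 lay between -0.31 and -0.0032. Hspd1 had 0.88 in the Cyp27a1 KO and 0.02 on the Cyp3a-null background.

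Loss of Cyp3a gave opposite folds, both at least 1.5-fold, for Hsph1: 0.73 in the Cyp3a KO against WT and -0.63 in the DKO against the Cyp27a1 KO. This held for 1 of 10 members and 1.12% of all measured genes. The second Hsph1 value was -0.22 on TPM and -0.38 relative to the TPM median gene, and the transcript length implied by the ratio of counts to TPM differed between libraries for this gene, at 1.16, 1.13 and 0.987 of the WT value in the Cyp27a1, Cyp3a and double knockouts. The inducible Hsp70 genes kept 1 direction, with 0.82 and 0.97 for Hspa1a and 1.59 and 0.55 for Hspa1b. Hspb1 had -0.18 and -2.05. By CPM, for 9 of 10 members the DKO log2 fold over WT was below the sum of the folds of the single knockouts, Hspa1a being the exception, with a median shortfall of -0.85. The same was so for 52.4% of all measured genes, with a median of -0.02. On TPM Hspa8 also lay above its sum, at 0.65 in the DKO against 0.55 and -0.04 in the Cyp27a1 and Cyp3a knockouts. Relative to the TPM median gene these were 0.32, 0.38 and -0.12. All 4 libraries enter such a comparison, so a shortfall cannot be told apart from a deviation of 1 mouse.

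**Figure D3:**
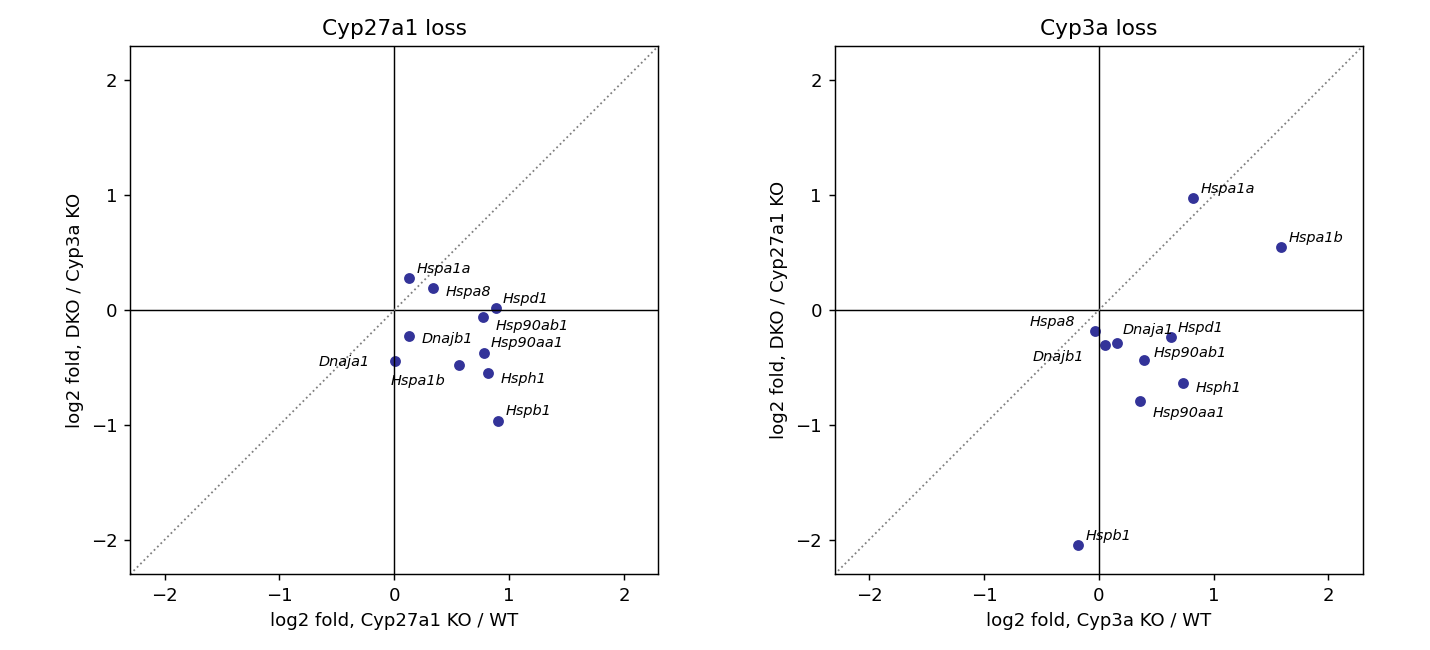
Log2 fold of each gene loss on the intact background (horizontal axis) and on the background lacking the other gene (vertical axis) for the 10 chaperones, with a dotted line where both would be equal. Most members lie below the line, Hspb1 farthest (0.91 and -0.96 for Cyp27a1 loss, -0.18 and -2.05 for Cyp3a loss).

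Other chaperone genes were followed through lists of relatives of the members. Over all measured genes, 2.44%, 2.56% and 6.00% were called 2-fold higher in the Cyp27a1, Cyp3a and double knockouts, and 1.36%, 1.86% and 4.02% lower. Beside these shares, 0 or 1 call in lists as short as those below does not set a list apart. The heat shock factors and their regulator varied little. Hsf1 itself had 14.5 CPM in WT, 13.8 in Cyp27a1 KO liver, 14.6 in Cyp3a KO liver and 12.8 in DKO liver. Of 4 measured genes in that list, 0 were called 2-fold in any knockout, with median log2 folds of -0.15, 0.00 and -0.12 in the Cyp27a1, Cyp3a and double knockouts. Other Hsp70 genes and exchange factors had 0 of 16 called in each knockout, with medians of 0.02, 0.05 and -0.05. Hspa4l, a relative of Hsph1, had 16.0, 28.4, 16.7 and 21.4 CPM in WT, Cyp27a1 KO, Cyp3a KO and DKO livers. Its order of libraries was not that of Hsph1, in which the Cyp3a KO was also high. Other J-domain genes had 0 of 12 called, with medians of 0.02, -0.04 and -0.09, and Dnajb2 had 36.5, 60.6, 47.2 and 54.2 CPM.

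Among 13 Hsp90 co-chaperones, 1 was called: Fkbp5, an immunophilin and a textbook glucocorticoid target, was 2.08-fold lower (2.02 to 2.15) in the Cyp3a KO. It had 290.0 CPM in WT, 197 in Cyp27a1 KO liver, 139 in Cyp3a KO liver and 152 in DKO liver. The list's median log2 folds were 0.27, 0.07 and -0.09 in the Cyp27a1, Cyp3a and double knockouts. Fkbp4, a partner of Hsp90 in steroid receptor complexes, had 115 CPM in WT and 153 in the Cyp27a1 KO, the library where both Hsp90 genes were highest. On TPM the log2 fold of Fkbp5 in the Cyp3a KO was -0.89, outside the 2-fold rule.

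The other small heat shock proteins lay closer to WT than Hspb1 did in the Cyp27a1 KO, and most went the other way. Log2 folds there were -0.43 for Hspb6, -0.38 for Hspb11 and -0.31 for Cryab, against 0.30 for Hspb8. Of 6 in the list 4 were measured, 0 were called, and the median log2 folds in the order above were -0.35, -0.19 and -0.55. Hspb8, a partner of Bag3 in selective autophagy, had 208 CPM in WT, 256 in Cyp27a1 KO liver, 184 in Cyp3a KO liver and 145 in DKO liver, the same order of libraries as Hspb1 over a narrower range. Cryab, the lens crystallin also made elsewhere, had between 1.44 and 2.40 CPM.

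Chaperones of the mitochondrion included Hspe1, the Hsp10 partner of Hspd1 and its divergent neighbour. Hspe1 had 64.5 CPM in WT, 100.3 in Cyp27a1 KO liver, 109 in Cyp3a KO liver and 81.3 in DKO liver. As for Hspd1, all 3 knockouts were above WT. The annotated first exons of the pair overlap, so reads from there could be counted for either gene. Its folds were 1.56 (1.49 to 1.63), 1.68 (1.61 to 1.76) and 1.26 (1.20 to 1.32). Of 9 genes in the list 1 was called, Grpel2, an exchange factor for mitochondrial Hsp70, which was 2.03-fold lower (1.93 to 2.15) in the DKO, a call lost under median-of-ratios scaling. Grpel2 had 77.2 CPM in WT, 51.8 and 38.6 in the Cyp27a1 and Cyp3a knockouts and 38.0 in the DKO, and in the Cyp3a KO its log2 fold of -0.99 lay just outside the rule. The list's medians were 0.25, 0.16 and 0.14. The cytosolic chaperonin CCT, which folds actin and tubulin, had 7 measured subunits, 0 called, and medians of 0.24, 0.07 and 0.15.

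Chaperones of the endoplasmic reticulum followed another order. Of 14 measured, 13 had a log2 fold above 0 in the Cyp3a KO, with a median of 0.55, and 2 were called higher: Pdia4, a disulfide isomerase, at 2.09-fold (2.01 to 2.18) and Sdf2l1, a partner of BiP, at 2.05-fold (1.86 to 2.25). Over all measured genes, 50.9% had a log2 fold above 0 in the Cyp3a KO and 2.56% were called higher. In the Cyp27a1 KO and the DKO 0 of the 14 were called, with medians of 0.11 and -0.19. On TPM 1 of the 14 was called higher in the Cyp3a KO, where Pdia4 had a log2 fold of 0.9997.

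**Figure D4:**
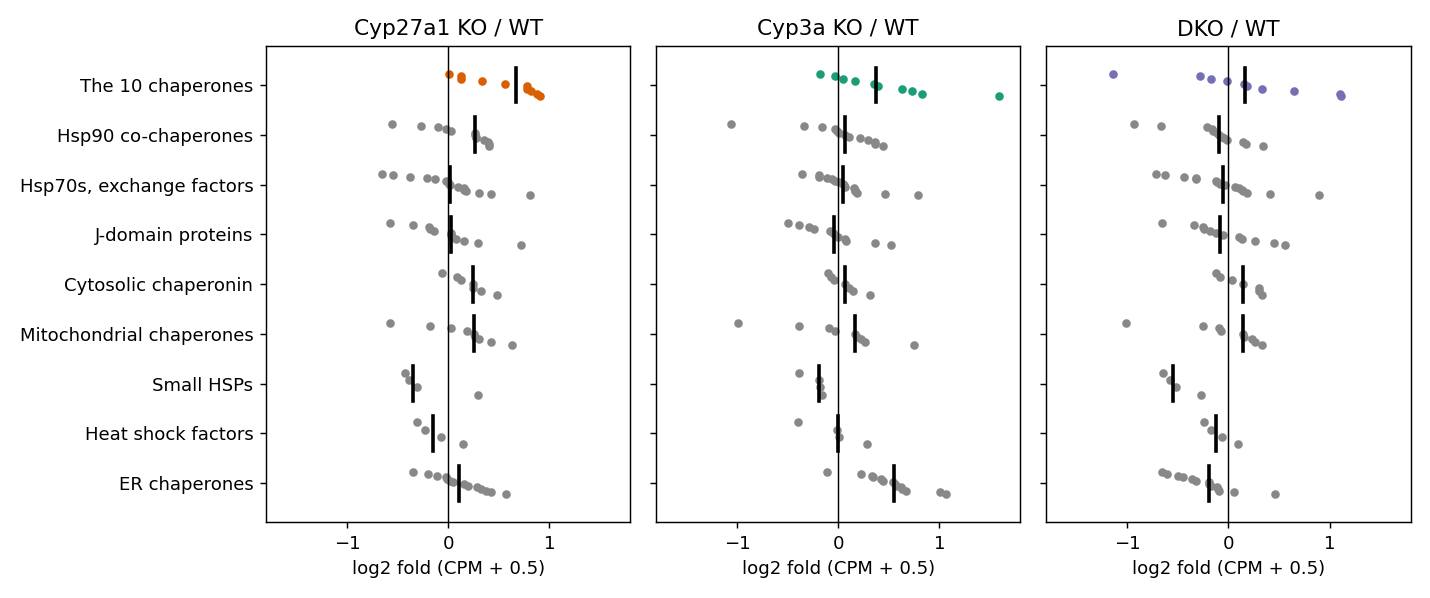
Log2 fold of CPM plus 0.5 over WT for the 10 chaperones and for 8 lists of related genes in each knockout, 1 point per measured gene, with a black bar at the median. In the Cyp27a1 KO the 10 chaperones have a median of 0.67 and the lists lie between -0.35 and 0.27, while the list of the endoplasmic reticulum has its highest median, 0.55, in the Cyp3a KO.

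Transcripts tied to the state of the animal or tissue at collection also differed between the libraries. Immediate early genes, which respond within minutes to handling, injury or growth signals, had 4 of 10 measured genes called higher in Cyp27a1 KO liver, 7 in Cyp3a KO liver and 6 in DKO liver, with 1 called lower in the DKO. Over all measured genes, 2.44%, 2.56% and 6.00% were called higher in the same order, and 4.02% lower in the DKO. Medians of the immediate early genes were 0.73, 1.16 and 1.25. Egr1 had 15.1 CPM in WT, 121 in Cyp27a1 KO liver, 92.6 in Cyp3a KO liver and 80.3 in DKO liver. In the same order Atf3 had 1.93, 1.97, 5.93 and 8.12 CPM, and Junb had 16.5, 42.1, 66.1 and 45.1 CPM. Atf3 and Junb were higher in both livers without Cyp3a than in both with it, as Hspa1a and Hspa1b were. Egr1 and Myc did not split in this way, with the Cyp27a1 KO above the Cyp3a KO for each. Atf3, Junb, Egr1 and Myc are the 4 genes named from this list for their large folds. Of the cold-inducible genes, Cirbp had 9.01, 5.36, 9.09 and 7.13 CPM and Rbm3 27.1, 29.4, 22.1 and 38.8 CPM in WT, Cyp27a1 KO, Cyp3a KO and DKO livers. The part of handling, temperature or time of collection in the chaperone values was not tested.

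Markers of other liver cells differed between the libraries as well. Summed over 8 Kupffer cell markers, the level was 238 CPM in WT, 253 in Cyp27a1 KO liver, 156 in Cyp3a KO liver and 378 in DKO liver. For 7 endothelial markers it was 234, 194, 181 and 203 CPM, and for 7 stellate cell markers 90.5, 75.0, 119 and 73.3 CPM. For 5 cholangiocyte markers, of which 4 reached a mean of 1 CPM, it was 43.1, 31.3, 42.4 and 37.2 CPM. Erythroid genes, 5 in all, summed to 608, 448, 286 and 279.9 CPM. The 4 globin genes were highest in WT, whereas Alas2, of heme synthesis, had 87.7, 146, 103 and 29.2 CPM. The 8 hepatocyte markers had median log2 folds of -0.35 in each of the 3 knockouts, but their sums differed, at 105830, 64926, 69456 and 91212 CPM. Alb alone had 72499, 37953, 40344 and 65721 CPM. None of 6 markers of T, NK and B cells reached a mean of 1 CPM. In bulk tissue a different number of cells of a type and a different amount of RNA per cell cannot be told apart, and the part of these markers in the chaperone values was not tested.

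The 5 genes outside the set whose folds over WT lay nearest to the members' median profile (0.67, 0.38 and 0.17) were found by Euclidean distance over the 3 log2 folds, among 7229 genes with a mean of at least 10 CPM. They were Srd5a1, a steroid 5-alpha-reductase (distance 0.0967), Mccc2, a leucine breakdown enzyme (0.151), Ran, the nuclear transport GTPase (0.155), Hgd, an enzyme of tyrosine breakdown (0.155), and Zfp36l1, which binds AU-rich RNA (0.159). Srd5a1 had 106 CPM in WT, 174 in Cyp27a1 KO liver, 142 in Cyp3a KO liver and 126 in DKO liver. Of the members themselves, Hsp90ab1 and Hsp90aa1 lay closest to that profile, at 0.201 and 0.213, and Hspa1b farthest, at 1.54.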

How the data were processed

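RNA of 4 livers from male mice, 1 per genotype, was sequenced from TruSeq v2 libraries, per the labels' protocols. Build mm10, kallisto 0.43.1, HISAT2 2.0.5 and Trimmomatic 0.33 were used, per the submitters' processing notes, which give no role for each. Each gene symbol has estimated counts and TPM deposited by the authors, and the counts were rounded here. A row that names no gene was left out and held 0 counts. Counts became CPM through TMM factors (edgeR 4.0.16, R 4.3.3) of 0.937 for WT, 0.996 for the Cyp27a1 KO, 0.994 for the Cyp3a KO and 1.08 for the DKO. A count equalled 0.0185 to 0.0214 CPM. Log2 folds use CPM plus a pseudocount of 0.5, which understates low genes, whereas ratios use CPM alone. Bounds of ratios are Clopper-Pearson (conditional binomial) at 95%.

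Positions of genes come from GENCODE M21 (GRCm38, the mm10 build), matched by symbol. Alternatives were library-total and median-of-ratios scaling (DESeq2 1.42.0), deposited TPM, filters, pseudocounts, fold rules, no counting interval and, for Hspa1a and Hspa1b, summed counts. A recentring of TPM on the median gene was chosen after seeing the data. All 10 members are named; from each of the 10 pathway and 7 marker lists at most 4 genes with the largest folds could be named, and other genes (Cyp27a1, Cyp3a11) check the labels. The members and lists were chosen with earlier results of these data known. Python 3.11.15 was used.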

Additional observations from a re-analysis of the deposited data

Results flagged for a closer look

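Hspb1 had opposite folds for loss of Cyp27a1 on the 2 backgrounds, both at least 1.5-fold: a log2 fold of 0.91 with Cyp3a intact and -0.96 without it. Every library here is 1 mouse, and the difference between the 2 folds was not tested. On TPM the values were 1.09 and -0.72, and relative to the TPM median gene 0.92 and -0.95.

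Hsph1 had opposite folds for loss of Cyp3a, 0.73 with Cyp27a1 intact and -0.63 without it, and this difference was not tested either. On TPM the second value was -0.22, under 1.5-fold.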

How the results depend on the processing

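Of 305 member folds recomputed under other scalings, tables and pseudocounts, 12 changed sign, and 0 of these were 1.5-fold or more. A change of pseudocount cannot change a sign, so the recomputations with other pseudocounts say nothing about signs. Of the 50 member folds over all comparisons, 6 changed sign on deposited TPM and 4 under library-total scaling. Library totals moved the median of all measured genes by up to 0.17 (DKO against WT) and TPM by up to 0.32. With 1 library per genotype no replicate could be left out. No paired analysis was possible because each genotype has 1 library.

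Counts of members called at 2-fold moved as follows. In the Cyp27a1 KO against WT, 0 higher became 3 on TPM and 5 at 1.5-fold. In the Cyp3a KO against WT, 1 higher became 0 at 4-fold and 4 at 1.5-fold. In the DKO against WT, 2 higher became 1 with a mean CPM of at least 5, 1 on TPM recentred on the median gene, 0 with a pseudocount of 2 and 0 at 4-fold, and 1 lower became 0 under library-total scaling, on TPM and at 4-fold. In the DKO against the Cyp27a1 KO, 0 higher became 1 under library-total scaling, with a pseudocount of 0.1 and at 1.5-fold, and 1 lower became 3 at 1.5-fold. In the DKO against the Cyp3a KO, 0 lower became 1 with a pseudocount of 0.1 and at 1.5-fold. The members' median log2 fold in the DKO against WT was 0.17, and 0.37 under library-total scaling, 0.60 on TPM and 0.28 on recentred TPM. Against the Cyp27a1 KO it was -0.29, and -0.18 under library totals and -0.17 on TPM. Against the Cyp3a KO it was -0.30, and -0.18 under library totals and 0.025 on TPM. The cause of the TPM differences was not tested.

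Counts over all measured genes moved with the same settings. In the Cyp27a1 KO against WT, 287 higher became 435 on TPM, 65 at 4-fold and 809 at 1.5-fold, and 160 lower became 98 with a mean CPM of at least 5, 96 with a pseudocount of 2, 23 at 4-fold and 583 at 1.5-fold. In the Cyp3a KO against WT, 301 higher became 51 at 4-fold and 867 at 1.5-fold, and 219 lower became 132 both with a mean CPM of at least 5 and with a pseudocount of 2, 38 at 4-fold and 665 at 1.5-fold. In the DKO against WT, 705 higher became 1258 on TPM, 454 with a mean CPM of at least 5, 197 at 4-fold and 1599 at 1.5-fold, and 472 lower became 266 on TPM, 114 at 4-fold and 1232 at 1.5-fold. In the DKO against the Cyp3a KO, 472 higher became 724 on TPM, 269 with a mean CPM of at least 5, 311 with a pseudocount of 2, 108 at 4-fold and 1126 at 1.5-fold, and 317 lower became 206 on TPM, 84 at 4-fold and 873 at 1.5-fold. In the DKO against the Cyp27a1 KO, 333 higher became 181 with a mean CPM of at least 5, 91 at 4-fold and 927 at 1.5-fold, and 304 lower became 79 at 4-fold and 776 at 1.5-fold. Of the list calls, those of Fkbp5 and Grpel2 were lost under library-total scaling and on TPM.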
